A study of Mus musculus with 8 samples.

Results

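The genes described here are 10 members of the ATF4 branch of the integrated stress response and of the serine and folate pathway that it feeds: Atf4, Ddit3, Asns, Trib3, Chac1, Sesn2, Psat1, Phgdh, Shmt2 and Mthfd2. They were chosen by name among the 24356 gene symbols of a table of transcript isoforms, where they hold 14 of 34535 isoform entries. The table comes from RNA sequencing of adipocyte precursors, the mesenchymal cells of the dermis that can form fat cells, sorted from male C57/Bl6 mice aged 7 weeks. One group was 6 samples from nonwounded dorsal skin, and the other was 2 samples from the wound bed at day 5. The labels name no transgene, drug or mutation in either group, and give no wound method. They do not state if each sample was a separate animal, so the spread between samples behind the p-values may be technical. The table gives 1 FPKM value for each group (a level scaled to the length of the transcript and the size of the library), pooled by the authors, and none for single samples, so that no SD can be given and no single sample can be weighed.

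In the integrated stress response, kinases that sense protein misfolding, amino acid shortage, double-stranded RNA or heme shortage phosphorylate the translation factor eIF2, which slows most translation while raising that of Atf4 mRNA. ATF4 is a basic leucine zipper transcription factor that binds with C/EBP partners to C/EBP-ATF response elements and turns on genes of amino acid synthesis, amino acid uptake and tRNA charging, together with the stress regulators DDIT3 (also called CHOP) and TRIB3. Because ATF4 is controlled mainly at translation, its mRNA level is not its protein level, and the protein was not measured in these data. In fibroblasts, serine and glycine synthesis is known to supply glycine for collagen.

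Among the 10 genes, the stress regulators Atf4, Ddit3 and Sesn2 rose in the wound bed. The stress regulator Trib3, whose point value was lower there, did not pass the test. The synthesis enzymes Asns, Phgdh, Psat1, Shmt2 and Mthfd2 did not pass the test in either direction. A gene was called when the Benjamini-Hochberg adjusted p of its major isoform, the tested isoform whose FPKM summed over both groups was highest, was under 0.05, adjusted over all 17775 tested isoforms. Of the 9 members that the authors tested, 3 were called higher and 0 lower, and Chac1 was not tested. Over all 13718 tested genes, 7.01% were called higher and 8.67% lower by the same rule. At an unadjusted p under 0.05 in the authors' deposited table of Cuffdiff results, 4 members were higher and 1 was lower. Of all 17775 tested isoforms, 4857 had an unadjusted p under 0.05, in either direction and with no FPKM minimum. This is only a rough background for each such count below. Those counts are of genes by major isoform, split by direction, and for the lists with an FPKM of at least 1. The 10 members had a median log2 fold change of 0.47, beside -0.11 for the 10630 tested genes whose FPKM reached 1 in each group. The median was 0.36 for the 9 tested members and 0.47 for the 8 that reached an FPKM of 1 in each group. The members ran from -1.65 for Trib3 to 2.60 for Sesn2. With an adjusted p under 0.01 Sesn2 alone was called among them, and where a change of 1 on the log2 scale was also required, Atf4 was not. With a pseudocount of 1 FPKM the median was 0.24.

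**Figure D1:**
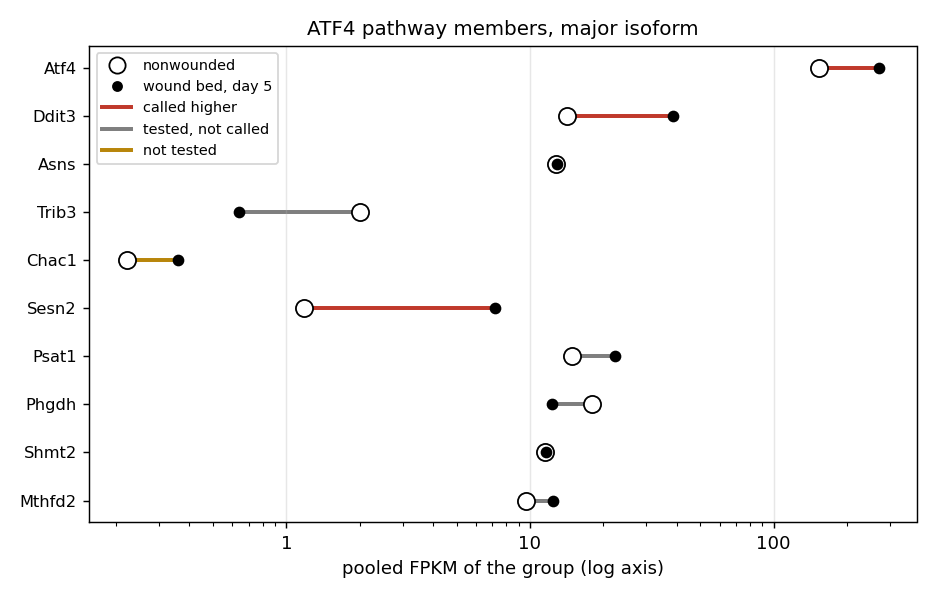
Pooled FPKM (horizontal log axis) of the major isoform of each member in nonwounded skin (open circles) and in the day 5 wound bed (filled circles), joined by a line coloured by the call, with no error bars because the table holds 1 value per group. Atf4 lies highest in both groups (154 and 271), Sesn2 spans the widest gap (1.18 to 7.18), and the circles of Asns and Shmt2 coincide.

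Atf4, the transcription factor at the centre of the response, was the most abundant member. Its major isoform (NM_001287180) stood at a pooled FPKM of 154 in nonwounded skin and 271 in the wound bed. The nonwounded level was already above that of 96.6% of tested genes. The rise was 1.76-fold, or 0.82 on the log2 scale (adjusted p of 0.0157), which exceeded the log2 fold change of 83.7% of the tested genes that had both values above 0. A minor isoform (NM_009716) stood at 1.21 and 9.15, a larger fold change at a far lower level, and was not called (adjusted p of 0.205). GENCODE ties both isoforms to the same transcript of 3 exons and 349 codons, so the split of reads between them is uncertain. The sum of both isoforms gave a log2 fold change of 0.85. The locus in the table is chr15:80255184-80257545.

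Ddit3 encodes CHOP, a transcription factor induced by ATF4 that is known for promoting cell death under prolonged stress of the endoplasmic reticulum. Its major isoform (NM_007837) stood at 14.2 in nonwounded skin and 38.5 in the wound bed, a rise of 2.71-fold or 1.44 on the log2 scale (adjusted p of 0.0239). The minor isoform (NM_001290183) stood at 1.97 and 2.19 and was not called (adjusted p of 0.937). The major isoform held 87.9% of the summed FPKM of the gene in nonwounded skin and 94.6% in the wound bed, although GENCODE also ties both of these to 1 transcript of 4 exons. The sum of both gave 1.33. The locus in the table, chr10:127290793-127311786, also takes in the neighbouring methionyl-tRNA synthetase gene Mars, whose major isoform stood at 19.2 and 12.6 and was not called.

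Sesn2 encodes sestrin 2, a leucine-binding inhibitor of mTORC1 signalling that is induced by ATF4 and by p53. It had the largest fold change of the 10 members, from 1.18 in nonwounded skin to 7.18 in the wound bed, 6.07-fold or 2.60 on the log2 scale (adjusted p of 0.00239). Its log2 fold change exceeded that of 96.0% of tested genes. Its level nevertheless moved only from above 13.9% to above 57.5% of tested genes, so it was a low transcript that became a middling one. The table holds a single Sesn2 isoform, at chr4:132492807-132510456. The other sestrin genes did not share one direction: Sesn1, a p53 and FOXO target, fell by 2.80 on the log2 scale, from 35.7 to 5.12 (adjusted p of 0.000882; -2.21 for the sum of its isoforms). Sesn3, also a FOXO target, rose from 6.32 to 13.7, by 1.12 (adjusted p of 0.0265).

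**Figure D2:**
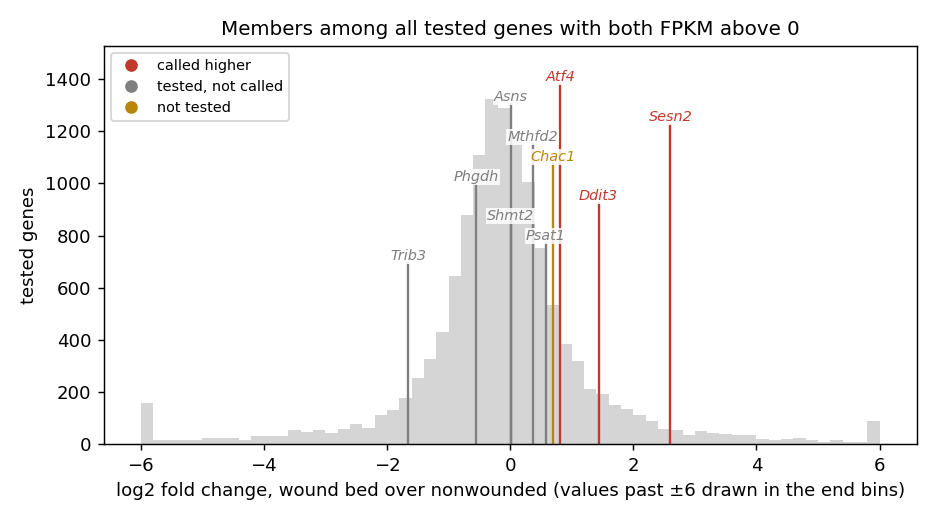
Number of tested genes (vertical axis) in each bin of log2 fold change of the wound bed over nonwounded skin (horizontal axis), in grey, with a line for each member, red if called higher, grey if tested and not called and ochre for Chac1, which was not tested; line heights only separate the labels. Sesn2 (2.60) and Ddit3 (1.44) lie in the right tail, Asns (0.01) and Shmt2 (0.01) lie near the middle, and Trib3 (-1.65) lies on the left.

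Of the classical ATF4 target genes, Asns and Trib3 were not called and Chac1 was not tested. Asns, which encodes asparagine synthetase and is widely used as a readout of ATF4 activity, stood at 12.8 in nonwounded skin and 12.9 in the wound bed, a log2 fold change of 0.01 (adjusted p of 0.984). Trib3, which encodes a pseudokinase that feeds back on ATF4 and on AKT, stood at 2.0 in nonwounded skin and 0.636 in the wound bed, a log2 fold change of -1.65. Its adjusted p was 0.148, from an unadjusted p of 0.0343 in the authors' deposited table. Chac1, which encodes a glutathione-degrading cyclotransferase, was low at 0.222 and 0.361, and its status in the table is not tested. The point values of these genes therefore do not follow one direction, and with 1 pooled value per group no interval can be put on any of them.

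The promoter windows of the members, 250 bases before to 50 after the RefSeq start in the GRCm38.p6 assembly, were searched on both strands for the core of the C/EBP-ATF response element, TGATGNAA. All 10 members had a window, and 3 held this core: Asns, Chac1 and Trib3, the last of them only past the start site. Of 32851 promoter windows of all genes, 3.97% held it. The stretches of Asns and Chac1 are shown because these windows belong to ATF4 targets without a called mRNA. Asns was tested and not called, and Chac1 was not tested. Capitals mark the core, which in Chac1 is read on the opposite strand. The first base of the core lies 23 bases before the start of Asns and 193 before that of Chac1.
Asns (chr6:7693210-7693256, minus strand): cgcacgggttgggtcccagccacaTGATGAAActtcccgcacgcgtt
Chac1 (chr2:119351025-119351080, plus strand): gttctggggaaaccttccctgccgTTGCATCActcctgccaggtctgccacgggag

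The windows of Trib3 and Psat1 share another stretch, TGGTGCAA, which differs from the core and was picked out after the windows had been read. It occurred in 0.536% of all windows and in these 2 members. Since it was chosen from their windows, that share gives no measure of enrichment. It is shown in capitals because both genes hold it, and the bases just after it are shared as well.
Trib3 (chr2:152344062-152344117, minus strand): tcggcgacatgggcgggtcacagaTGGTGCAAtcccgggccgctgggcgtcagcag
Psat1 (chr19:15925164-15925219, minus strand): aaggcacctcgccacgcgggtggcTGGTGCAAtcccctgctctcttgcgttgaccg
Neither letter pattern was found in the windows of the called genes Atf4, Ddit3 and Sesn2, which says only that these letters are not in these windows. The palindromic E-box CACGTG and the endoplasmic reticulum stress element (CCAAT and CCACG spaced by 9 bases) were found in 0 of the 10 member genes, against 7.15% and 0.119% of all windows. A match is a description of the sequence, and binding was not measured.

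The members of serine synthesis and of the mitochondrial folate arm lay at similar moderate levels, between 9.64 and 22.3 in either group, and none passed the test. Phgdh, the entry enzyme that draws 3-phosphoglycerate from glycolysis into serine synthesis, stood at 18.0 in nonwounded skin and 12.3 in the wound bed (log2 fold change -0.55, adjusted p of 0.252). Psat1, the aminotransferase of the next step, stood at 14.9 and 22.3 (0.58, adjusted p of 0.178), with an unadjusted p of 0.0475 in the authors' deposited table. Psph, the phosphatase of the last step, stood at 6.33 and 5.50 (-0.20, adjusted p of 0.783). The 3 enzymes of this linear pathway thus had point values on both sides of 0, and none was called.

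Shmt2, which splits serine into glycine and a folate-bound carbon in mitochondria, stood at 11.5 in nonwounded skin and 11.6 in the wound bed for its major isoform (log2 fold change 0.01, adjusted p of 0.983). Its second isoform stood at 2.99 and 5.21 (0.80, adjusted p of 0.590), and its share of the summed FPKM was 20.7% in nonwounded skin and 31.0% in the wound bed. The sum of both gave 0.22. The isoforms are 504 and 501 codons long in GENCODE. The locus in the table, chr10:127514939-127522444, also takes in the neighbouring gene Ndufa4l2. Mthfd2, the next mitochondrial enzyme of the folate cycle and a gene typical of proliferating and embryonic cells, stood at 9.64 and 12.4 (0.36, adjusted p of 0.466).

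Paralogs of these enzymes were lower in level. Mthfd2l, the close relative of Mthfd2 in mitochondria, stood at 1.72 and 2.18 (log2 fold change 0.35, adjusted p of 0.681). Mthfd1l, which releases formate from mitochondria, stood at 1.29 and 2.85 (1.15, adjusted p of 0.177). Shmt1, the cytosolic counterpart of Shmt2, stood at 0.933 and 0.920 (-0.02, adjusted p of 0.986). The FPKM of Shmt2 was thus above that of Shmt1 in both groups, as a comparison of levels per length.

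**Figure D3:**
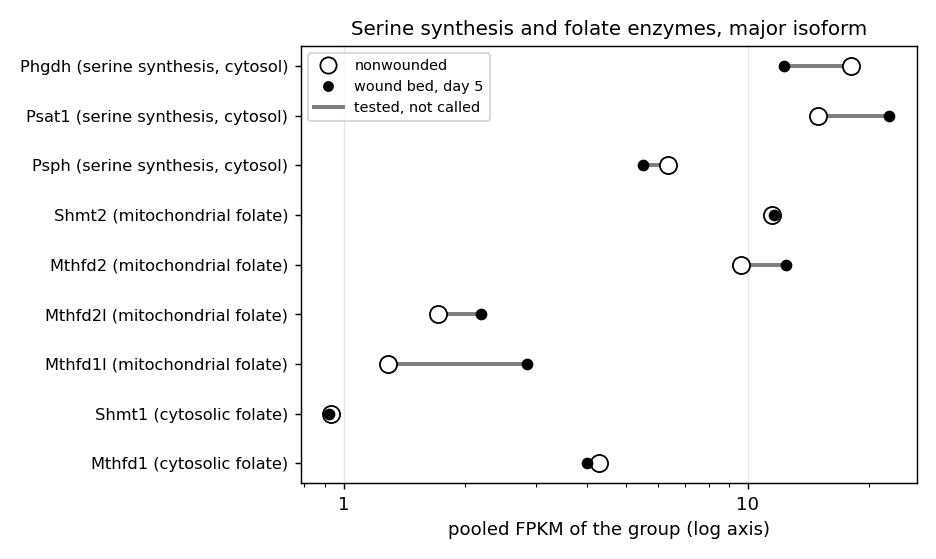
Pooled FPKM (horizontal log axis) of the major isoform of serine synthesis enzymes and of enzymes of the mitochondrial and cytosolic folate arms, in nonwounded skin (open circles) and the day 5 wound bed (filled circles), with grey lines because none of these genes was called. Phgdh (18.0 to 12.3) and Psat1 (14.9 to 22.3) are displaced in opposite directions, and Mthfd1l (1.29 to 2.85) shows the widest gap.

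The wider list of other serine, glycine and folate enzymes had 0 of 22 tested genes called higher and 0 lower, beside 7.39% and 8.70% of the 12960 tested genes whose FPKM reached 1 in the group where it was higher, the limit used for the lists from here on. At an unadjusted p under 0.05 in the authors' deposited table of Cuffdiff results, 4 of them were higher and 1 was lower, beside 4857 of all 17775 tested isoforms in either direction. Their median log2 fold change was -0.01.

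Among genes whose products act on eIF2, the kinases and phosphatase regulators differed in their calls. Ppp1r15a encodes GADD34, the stress-induced subunit that directs a phosphatase to eIF2 and so ends the response. It rose from 22.9 to 141, by 2.63 on the log2 scale (adjusted p of 0.000882). Eif2ak2 encodes PKR, the kinase that senses double-stranded RNA and is itself an interferon-inducible gene, and it rose from 5.73 to 10.5, by 0.88 (adjusted p of 0.0341). The other kinases were not called. Eif2ak3, which encodes the endoplasmic reticulum kinase PERK, stood at 20.2 and 18.2 (-0.15), and Eif2ak1, which encodes the heme-regulated kinase, at 18.2 and 12.9 (-0.50). Eif2ak4, which encodes the amino acid sensor GCN2, stood at 1.38 and 1.58 (0.19; 0.45 for the sum of its isoforms). In the list of 16 kinases, eIF2 and eIF2B subunits and phosphatase regulators, 2 were called higher and 0 lower, and 2 were higher and 1 was lower at an unadjusted p under 0.05 in the authors' deposited table of Cuffdiff results. The median was 0.04. The mRNA level of a kinase does not give its activity, and eIF2 phosphorylation was not measured.

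Among leucine zipper partners and other genes reported as ATF4 targets, 4 of 22 tested genes were called higher and 4 lower, with a median of 0.03 (-0.09 with sums over isoforms). In the authors' deposited table of Cuffdiff results, 4 of the 22 were higher and 6 lower at an unadjusted p under 0.05. Atf3, a stress and early response factor, rose from 51.3 to 644, by 3.65 on the log2 scale, and Cebpb, a C/EBP partner of ATF4 that also acts early in fat cell formation, from 19.7 to 173, by 3.13 (adjusted p of 0.000882 for each). Sqstm1, which encodes the autophagy receptor p62, rose from 102 to 354, by 1.80 (adjusted p of 0.000882). Sesn3, given above, was the fourth. Atf5, another leucine zipper factor, was called lower through its major isoform, a noncoding transcript at 93.5 and 6.98 (-3.74, adjusted p of 0.000882). The sum of its isoforms stood at 122 and 69.3 (-0.81), so its other isoforms together were higher in the wound bed. Stc2, a secreted glycoprotein gene, fell from 8.82 to 2.94, by 1.58 (adjusted p of 0.0318). Pycr1, which encodes a mitochondrial enzyme of proline synthesis, fell from 16.2 to 7.42, by 1.13 (adjusted p of 0.00819). Sesn1 was the other gene that fell, and Sesn3 and Pycr1 are named here because the calls were few, after their values were seen.

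**Figure D4:**
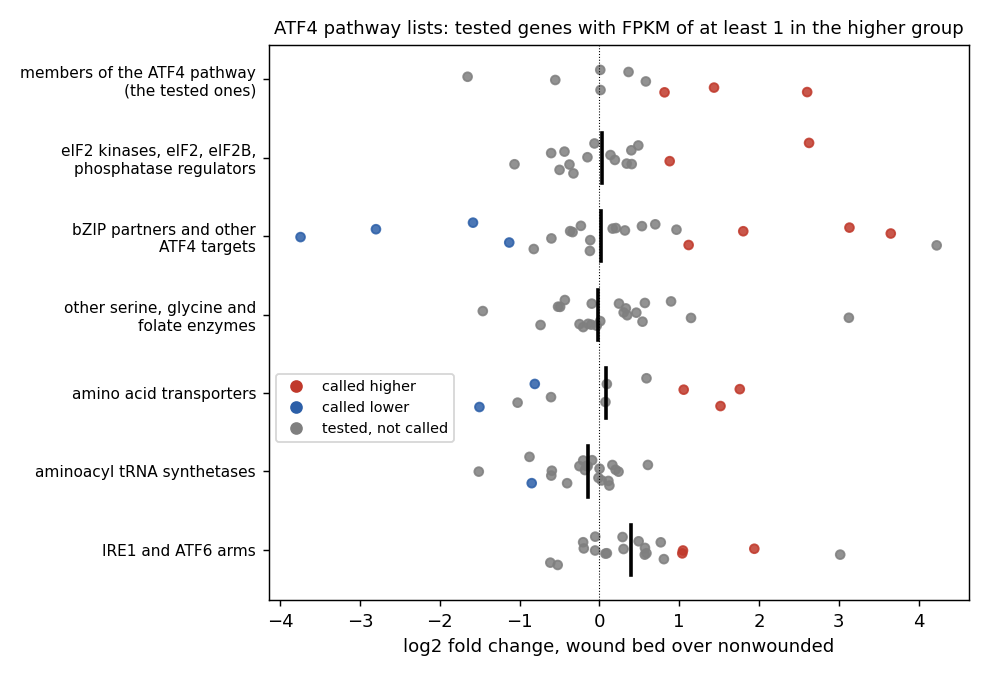
Log2 fold change of the wound bed over nonwounded skin (horizontal axis) of the tested genes of each list (rows) whose FPKM reached 1 in either group, with a point for each gene in red (called higher), blue (called lower) or grey (not called), with a black bar at the median of each list other than the members; vertical scatter within a row only separates points. Calls in both directions appear among the leucine zipper partners and other targets and among the transporters, and the row of other serine, glycine and folate enzymes has none.

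Amino acid transporters reported as ATF4 targets were also called in both directions, with 3 of 10 higher and 2 lower and a median of 0.08. Slc7a11, the cystine transporter gene, rose from 0.364 to 1.23 (1.76, adjusted p of 0.0393), a low level that reached the FPKM minimum of 1 only in the wound bed. Slc3a2, which encodes its heavy chain partner, rose from 27.0 to 56.0 (1.06, adjusted p of 0.000882), and Slc38a2, a gene for uptake of small neutral amino acids, from 32.4 to 92.7 (1.52, adjusted p of 0.000882). The genes of the neutral amino acid exchangers Slc1a5 and Slc1a4 fell, Slc1a5 from 215 to 75.9 (-1.50, adjusted p of 0.000882) and Slc1a4 from 15.2 to 8.67 (-0.81, adjusted p of 0.0373).

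Of 21 aminoacyl tRNA synthetase genes, all cytosolic except the mitochondrial Fars2, 0 were called higher and 1 lower. At an unadjusted p under 0.05 in the authors' deposited table of Cuffdiff results, 0 were higher and 4 lower. The called gene was Cars, for cysteine, from 17.4 to 9.66 (-0.85, adjusted p of 0.0384), and the median of the list was -0.15. In the other arms of the unfolded protein response, 3 of 20 genes were called higher and 0 lower, with a median of 0.40, and 8 were higher and 1 was lower at an unadjusted p under 0.05 in the authors' deposited table of Cuffdiff results. Ern1, which encodes the sensor IRE1, rose from 3.72 to 7.69 (1.05, adjusted p of 0.0211), and Dnajb9, a co-chaperone gene downstream of it, from 24.7 to 50.7 (1.04, adjusted p of 0.00239). The called isoform of Xbp1, the factor whose mRNA is spliced by IRE1, rose from 24.7 to 94.6, by 1.94 (adjusted p of 0.0166). The sum of the Xbp1 isoforms stood at 118 and 99.6 (-0.24), so its other isoforms together were lower in the wound bed.

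Several lists of markers of other cells also held called genes. Of 16 tested macrophage and monocyte markers, 9 were called higher and 0 lower, with a summed FPKM of 449 in nonwounded skin and 1214 in the wound bed, and none of the list was at 0. Of 3 tested neutrophil markers 0 were called, and 1 was higher at an unadjusted p under 0.05 in the authors' deposited table of Cuffdiff results. Their list summed to 2.01 and 101, with Elane at 0 in both groups and Camp at 0 in nonwounded skin. Mast cell markers were called lower in 4 of 4 cases, with sums of 59.2 and 6.26. Calls were fewer for mature adipocyte markers (1 of 6 lower, sums of 95.0 and 6.01), skeletal muscle markers (1 of 5 lower, 80.6 and 8.01) and endothelial markers (1 of 5 lower, 94.6 and 27.0). At an unadjusted p under 0.05 in the same Cuffdiff results, 1, 4 and 2 of these were lower in turn, and 0 were higher. Log2 fold changes were below 0 for all 6 adipocyte markers and for the 4 muscle markers that had one. Among endothelial markers 2 were below 0 and 3 above. Most of the endothelial sums came from Tek, named for this reason, whose isoforms summed to 83.1 and 18.4 and which was not called. Keratinocyte markers were called higher in 2 of 5 cases, with sums of 18.8 and 33.4. Of 10 adipocyte precursor and mesenchymal markers, which summed to 4482 and 2853, 0 were called higher and 2 lower, and 1 was higher and 2 were lower at an unadjusted p under 0.05 in the authors' deposited table of Cuffdiff results. Pdgfra, the receptor gene that marks these cells, stood at 78.8 and 81.2. In such bulk samples a change in the number of cells of a type and a change in RNA per cell cannot be told apart, and the part of these other cells in the values of Atf4, Ddit3 and Sesn2 was not tested.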

How the data were processed

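The RNA, purified by Trizol and column, went into TruSeq mRNA libraries, per the labels' protocols. Reads were aligned with TopHat2 2.0.2 and compared with Cuffdiff 2.0.2, and the build is named mm9, per the submitters' processing notes. However, all 10 members have a locus in the table with an edge no more than 100 bases from that of the gene in GRCm38.p6 RefSeq, so coordinates are given as in the table, with starts counted from 1. The analysis used the FPKM per group and the p-value per isoform as the authors deposited them; the number of unused columns of per-sample values was 0. Since FPKM are not counts, no count test was run, and sequencing depth per sample is unknown.

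Of 34535 isoforms, 17775 had a test. Their p-values, as deposited, were adjusted by Benjamini and Hochberg over these, and the resulting calls matched the significance column of the table in all 34535 entries. Log2 fold changes are wound bed over nonwounded FPKM without a pseudocount. The genes named beyond the members were the 4 eIF2 kinases, Ppp1r15a, Psph, Shmt1, Mthfd2l and Mthfd1l, up to 3 called genes per direction in each list by size of the log2 fold change, and single genes given beside a member. Members and lists were chosen with earlier results of these data known. The adjustment was tested on simulated data: with 200 true changes put into 17775 simulated p-values, it found 97.5% of them, and 5.8% of its calls were false. The planted p-values were set to be very small. The simulation thus checks the computation only, and does not show how many real changes these samples could reveal. Promoters are RefSeq sequences of GRCm38.p6. Some lists of markers are not reported here. Alternatives were other thresholds, FPKM minimums, pseudocounts, sums over isoforms and centring. Python 3.11.15, numpy 2.4.6 and pandas 2.3.3 were used.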

Additional observations from a re-analysis of the deposited data

How the results depend on the processing

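The number of members called higher was 3, and it stayed at 3 with an adjusted p under 0.1, with FPKM minimums of 1 and 5 and with any isoform of the gene counted. It was 1 (Sesn2) with an adjusted p under 0.01, 2 (Ddit3 and Sesn2) with an absolute log2 fold change of at least 1, and 0 with Bonferroni adjustment, under which the smallest deposited p of 5e-05 cannot pass. The 2294 calls over all isoforms became 1465 at 0.01 and 0 with Bonferroni adjustment. The median of the 10 members, 0.47 on the log2 scale, was 0.24 with a pseudocount of 1, 0.44 with a pseudocount of 0.1, 0.48 for sums over isoforms and 0.58 centred on the median of expressed isoforms. No member changed sign, but none of these settings could have turned one. Pseudocounts cannot turn a sign, and 6 of the members have 1 isoform. For the other 4, both isoforms were higher in the wound bed, so their sums were too. Centring subtracted a median of -0.11, which raised every value by too little to turn Trib3 (-1.65) or Phgdh (-0.55). With sums over isoforms the list medians became -0.086 for leucine zipper partners and other targets, 0.00068 for transporters, -0.092 for tRNA synthetases and 0.30 for the other arms of the unfolded protein response. With the letters TGATGCAA, 1 member promoter matched in place of 3. No paired analysis was possible because the table holds 1 pooled value per group, and for the same reason no replicate could be left out.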
